A study of Oncorhynchus mykiss with 9 samples.

Results

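The control arm of a rainbow trout (Oncorhynchus mykiss) hypoxia experiment is described here as a baseline: what the liver of fish kept without a hypoxia treatment expressed, at what level, and how far its libraries differed. The members are the 3 control liver libraries of 9 liver libraries in all, taken by their treatment label, with every one of the 42127 listed genes ranked by its mean FPKM over the 3. FPKM, the number of sequenced fragments scaled by transcript length and by library size, is a level per length, so genes of different length can be set side by side. All 9 libraries came from liver of trout labelled wild-type. The other groups are 3 libraries of moderate hypoxia and 3 of acute hypoxia. The design text gives 12 h for the acute exposure and does not say plainly whether the same time holds for the moderate one; oxygen levels, strain, age and sex are not stated in the labels. Whether each library is 1 fish or a pool is not stated either, so the spread below is that between libraries and may be technical.

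The liver makes most of the proteins of blood plasma: albumin and other carriers, the apolipoproteins that wrap lipid particles, clotting factors, complement and the inhibitors that hold proteases in check. Hepatocytes, its main cell, also clear lipids, sugars, amino acids and foreign compounds. Salmonid genomes went through a whole-genome duplication after the one shared by teleost fishes, so many trout genes have a closely related second copy.

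The 3 control libraries were alike in size and content. Between 29598 and 30611 genes had a value above 0, between 13078 and 13491 reached 1 FPKM, between 2232 and 2386 reached 10 FPKM, and between 76 and 80 reached 1000 FPKM. Read totals are not in the table; relative depth, read from the steps between the lowest values, was 1 for control 1 by definition, 0.946 for control 2 and 1.18 for control 3. Log2 levels correlated across genes with Pearson's r of 0.989 between controls 1 and 2, 0.989 between controls 1 and 3, and 0.983 between controls 2 and 3, where genes are not independent replicates. Hepatocyte markers such as albumin, apoa2 and the fibrinogen chains together held 20.2%, 20.2% and 20.1% of the FPKM total in controls 1 to 3. Of the 50 listed loci, 42 reached 1 FPKM, so the tissue label and the markers matched. This list misses some abundant loci, among them transferrin (tfa), apoa-i-1 and the apolipoprotein A-II locus ncbi_110537948, so the hepatocyte share is too low.

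Control 1 lay between the other controls for most abundant genes, and this bears on every SD below. Of 514 genes of at least 100 FPKM, 88.9% had a control 1 value strictly between those of controls 2 and 3, against 5.06% with control 2 in the middle and 6.03% with control 3. In the moderate hypoxia group the middle library was library 1, 2 or 3 for 33.8%, 37.6% and 28.6% of 518 such genes. On the log2 scale the median distance of control 1 from the mean of controls 2 and 3 was 0.025 at this level, while that between controls 2 and 3 was 0.24. Of the 142 genes of at least 10 FPKM whose levels in controls 2 and 3 were more than 1.5-fold apart, 139 had control 1 in between. Picking genes by a gap between controls 2 and 3 itself favours this, and no matching count was made for other pairs of libraries. Control 1 was more than 1.2-fold outside that range for 12 of 2303 genes, among them a hemoglobin alpha locus (ncbi_110486351) at 8.04, 14.3 and 18.5 FPKM in controls 1 to 3. The pattern was weaker at lower levels. Of 4075 genes of at least 5 FPKM, 62.6% had control 1 in the middle, against 17.8% with control 2 and 19.5% with control 3. A value above 0 in 1 control alone was found for 669 genes in control 1, 882 in control 2 and 1240 in control 3. A value of 0 in 1 control alone was found for 1105 genes in control 1, 763 in control 2 and 663 in control 3. Such counts also depend on depth, which differed between the controls as given above. The summed exocrine pancreas and skeletal muscle markers given further on were lower in control 1 than in either of the others. How control 1 came to lie between the others was not tested, and the labels do not say whether it shares material with them. If it does, fewer than 3 controls are independent, and each SD and p below, taken over 3, may be too small. Most levels and shares are therefore given library by library, and the median spread and the counts of genes that passed the hypoxia tests are also given without control 1.

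**Figure D1:**
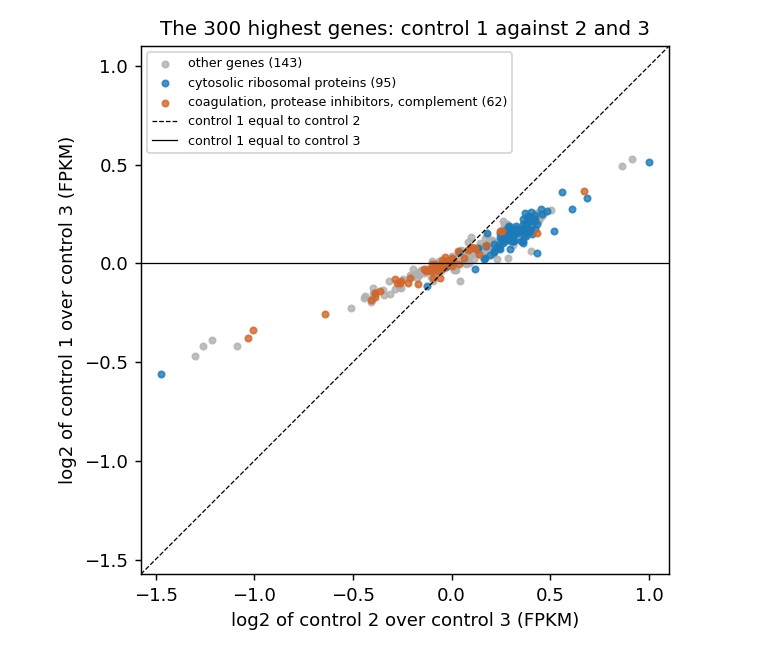
Each point is 1 of the 300 highest genes; the horizontal axis is log2 of control 2 over control 3 and the vertical axis log2 of control 1 over control 3, both from FPKM. Points between the solid and the dashed line have control 1 between the others, which holds for 86 of the 100 highest genes; ribosomal protein genes lie mostly to the right.

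A small number of genes held most of the control liver transcriptome. The highest gene alone held between 4.71% (control 3) and 5.33% (control 2) of the FPKM total. The 10 highest held 26.47%, 26.496% and 26.6% in controls 1 to 3, the 100 highest 59.5%, 58.02% and 60.5%, and the 1000 highest 88.7%, 88.3% and 88.7%. Over the 3 libraries the share of the 100 highest was 59.4% ± 1.27 (SD, n = 3). It took 54, 58 and 50 genes to reach 50% of the total in controls 1, 2 and 3, and 1248, 1334 and 1249 genes to reach 90%. The share of the 10 highest genes was nearly the same in the 3 libraries even though its members were not: the apolipoproteins among them were highest in control 2, and transferrin and a C1q-like gene in control 3. The share of the FPKM total does not depend on how a library was scaled, but it is a share of transcripts and says nothing of the amount of RNA per cell; in whole tissue, fewer cells of a type and less RNA per cell cannot be told apart.

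**Figure D2:**
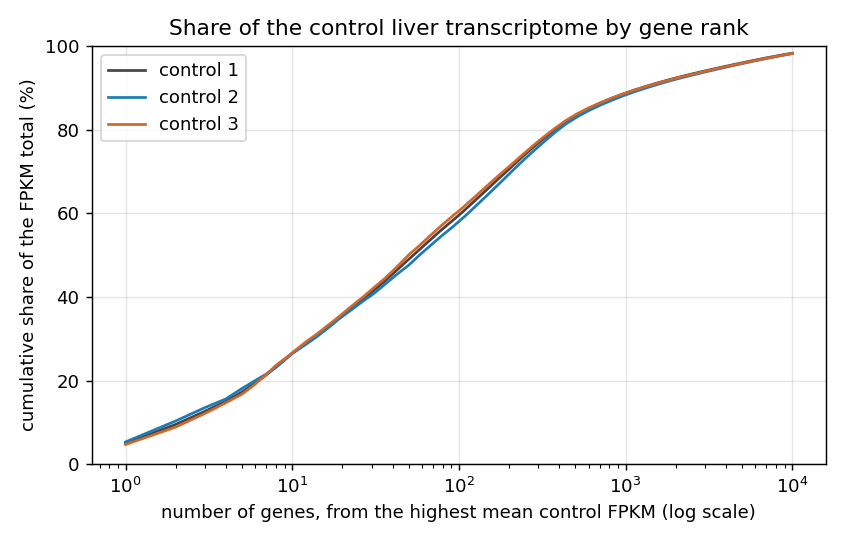
The cumulative share of the FPKM total (%) is plotted against the number of genes taken from the top of the control ranking (log scale), with 1 line for each control library. The 3 lines run close together and pass 50% at 50 to 58 genes.

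Apolipoproteins, the protein parts of lipoprotein particles, led the ranking and held 16.0%, 17.3% and 15.1% of the FPKM total in controls 1 to 3. Apolipoprotein A-I (apoa-i-1, ncbi_100135864), the main protein of high-density lipoprotein, was the highest gene, at 26799.9, 29164 and 24837 FPKM. Apolipoprotein A-II took rank 2 from 1 locus (apoa2, ncbi_100301979), at 24237, 27461 and 21964 FPKM, and rank 5 from another (ncbi_110537948), at 11886, 13691 and 10783 FPKM. All 3 were highest in control 2 and lowest in control 3. Apolipoprotein C-II (apoc2), the cofactor of lipoprotein lipase, was at 4894, 5224 and 4823 FPKM, and apolipoprotein C-I (ncbi_110510206) at 4689, 5160.2 and 4373 FPKM. Apolipoprotein B-100, the large scaffold of low-density lipoprotein, was split over 3 loci, the highest of which (APOB, ncbi_110529383) had 1567, 1514 and 1576 FPKM. Of 35 apolipoprotein loci, 31 reached 1 FPKM, 22 reached 100 FPKM and 11 were among the 100 highest genes. The class includes 4 loci named type-4 ice-structuring protein, 2 of them among the 100 highest, which held 0.556%, 0.562% and 0.573% of the total.

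Carrier proteins of plasma held from 14.2% (control 2) to 15.7% (control 3) of the total. Albumin, which trout express from a pair of loci, took ranks 3 and 4: one alb1 locus (ncbi_100499622) had 16896, 17527 and 17279.7 FPKM, and the other (ncbi_110531464) had 12691, 11296 and 13392 FPKM. The first albumin locus was level across the libraries, with a coefficient of variation (CV, the SD as a percent of the mean) of 1.84%, while the second was lowest in control 2. Transferrin (tfa), the iron carrier, had 11546, 10346 and 12624 FPKM. Fetuin B (fetub) had 4768, 4682 and 4708 FPKM. Hemopexin, which binds free heme, had 4371, 4671 and 4068 FPKM from hpxa and 3045, 2622 and 3339 FPKM from hpxb, so its 2 genes were in opposite order across the libraries. Haptoglobin (HP, ncbi_118936659), which binds free hemoglobin, had 4071, 4196 and 3963 FPKM. AMBP, the precursor of alpha-1-microglobulin and bikunin, had 2485, 2652 and 2299 FPKM.

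The complement system, a cascade of plasma proteins that marks and lyses microbes, held 6.49%, 5.82% and 6.97% of the total, and 48 of its 51 loci reached 1 FPKM. Complement C3, the hub of the cascade, was led by a locus (c3, ncbi_110489027) at 7141, 6125 and 7866 FPKM; this locus held 66.9%, 64.7% and 68.2% of the FPKM summed over the 8 C3 loci that reached 1 FPKM. The terminal component c9 had 2331, 2086 and 2501 FPKM. Factor B (cfb), part of the alternative pathway's convertase, had 1505, 1466 and 1493 FPKM. Genes named for a C1q domain without being C1q chains held a further 2.72%, 2.38% and 3.002%, most of it from the gene at rank 8 (complement C1q-like protein 3, ncbi_100136613) at 10165, 8666 and 11464 FPKM. The C1q chains themselves, made mainly by macrophages in mammals, stood far lower, the highest being c1qc at 15.4, 19.6 and 17.1 FPKM.

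Coagulation genes held 4.97%, 4.70% and 5.10% of the total. The 3 chains of fibrinogen, the clot's building block, had 5208, 5053 and 5209 FPKM (FGG), 4711, 4419 and 4818 FPKM (FGB) and 2757, 2722 and 2801 FPKM (FGA). Prothrombin came from a pair of loci, F2 (ncbi_100136077) at 3412, 3496 and 3237 FPKM and f2 (ncbi_100136616) at 1138, 1075 and 1141 FPKM. Over the 38 coagulation loci of at least 10 FPKM the median CV was 3.46%, against 8.25% over all 2303 genes of that level. From controls 2 and 3 alone these were 4.21% and 10.2%. Mitochondrially encoded genes and protease inhibitors of that level had median CVs nearby, at 2.97% and 3.86%, so this was not particular to coagulation genes. Protease inhibitors held 4.56%, 4.46% and 4.50%. Their highest gene, antiprot1, an alpha-1-antiproteinase, had 9012, 9611 and 8049.7 FPKM. Alpha-2-macroglobulin (A2m), which traps proteases, had 2041, 1805 and 2188 FPKM, and the C1 inhibitor serping1 had 1828, 1737 and 1873 FPKM.

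Genes of innate defence held 2.62%, 2.13% and 2.97%. Lysozyme, which cleaves bacterial cell walls, had 3143, 1756 and 4201 FPKM from lys (ncbi_118964557) and 1744, 984 and 2281 FPKM from a second lys locus (ncbi_110523157), while lyz2 was even at 2168, 2026 and 2207 FPKM. A pentraxin (APCS), of the family of C-reactive protein, had 2233, 2445 and 2042 FPKM. LECT2 (lect2), a secreted chemotactic factor made by the liver, had 1997, 1655 and 2255 FPKM. Together, the secreted classes (apolipoproteins, carriers, complement, C1q-domain, coagulation, protease inhibitor and innate defence genes) held 52.3%, 50.9% and 53.2% of the FPKM total, with 66 of the 100 highest genes and 22 of the 30 highest. Secreted proteins outside these classes, such as leg1 below, are not counted in them.

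**Figure D3:**
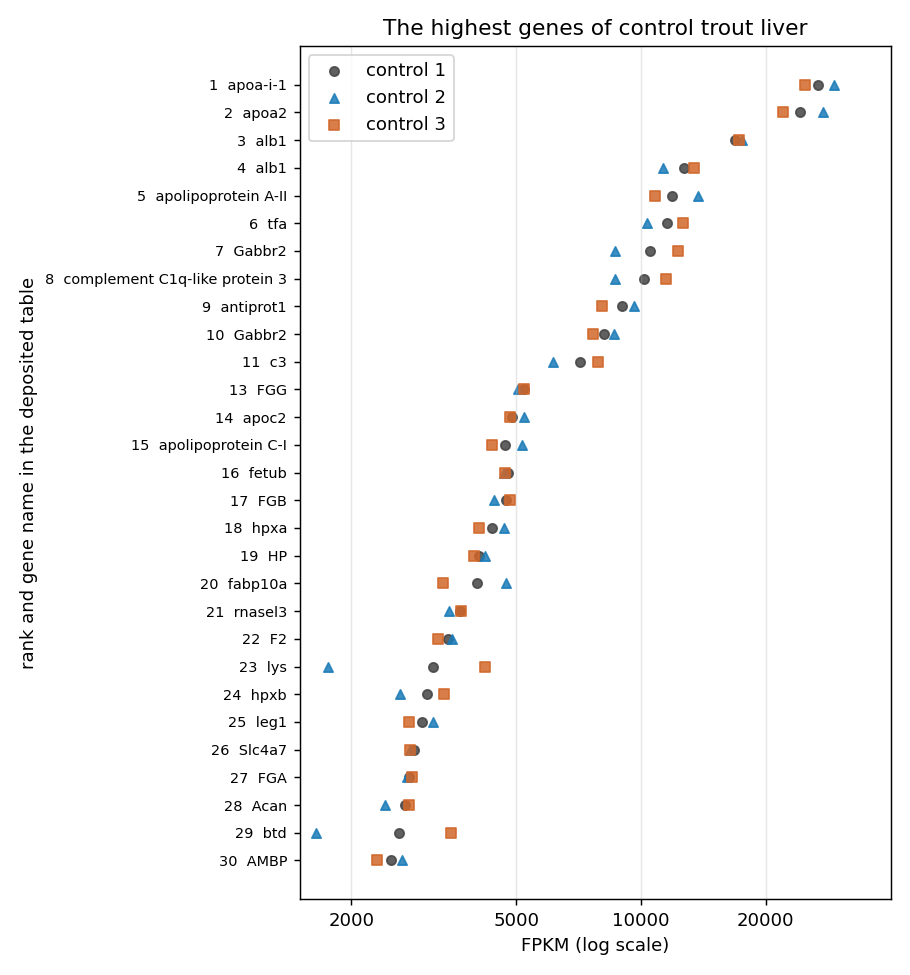
FPKM (log scale) of 29 of the 30 highest genes in controls 1, 2 and 3 (the other is not reported here), labelled by rank and by the name in the deposited table (the product name where no symbol is given). Control 1 lies between the others for 26 of the 29; lys and btd show the widest gaps between controls 2 and 3.

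Several genes in the top ranks fell outside the classes, and some of them carried names not typical of liver. A pair of loci named Gabbr2, a subunit of a brain neurotransmitter receptor, took ranks 7 and 10: ncbi_110534076 had 10526, 8641 and 12299 FPKM, and ncbi_110535324 had 8117, 8583 and 7657 FPKM. In the RefSeq gene table (assembly USDA_OmykA_1.1) each lies between tmem116 and RPP25L, and none of these 4 neighbours had a mean above 0.984 FPKM. A pair of loci named Slc4a7, a sodium bicarbonate cotransporter, had 2833, 2763 and 2763 FPKM (ncbi_110534121) and 1292, 1330 and 1321 FPKM (ncbi_110535510). Biotinidase (btd), which recycles biotin, had 2608, 1640 and 3483 FPKM. The ribonuclease rnasel3 had 3648, 3447 and 3669.6 FPKM, and leg1 (ncbi_100136074), a secreted liver protein known from zebrafish, had 2958, 3153 and 2758 FPKM. A gene with the symbol Acan carried the product name C type lectin receptor B and had 2700.5, 2405 and 2752 FPKM. Symbols were used as deposited, and whether a name fits its locus was not tested. Loci named as uncharacterized or without a product name held 1.13%, 1.097% and 1.15% of the total.

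Many abundant genes shared a product name with another locus. Leaving aside uncharacterized loci and those without a product name, the 100 highest genes carried 77 product names. Of these, 34 had at least 2 loci of at least 1 FPKM and 13 had at least 2 loci among the 100. Copies were matched by product name alone, so pairs under different names, such as hpxa and hpxb or the prothrombin pair, are not counted. Members of larger families of 1 name, such as the 8 C3 loci, are counted as copies. The share among less abundant genes was not counted. The split between copies was stable in some pairs and not in others. The first apolipoprotein A-II locus held 67.1%, 66.7% and 67.1% of its pair in controls 1 to 3, and the first Slc4a7 locus held 68.7%, 67.5% and 67.7%. For ribosomal protein S2 (rps2) the first locus (ncbi_110486878) held 80.7%, 91.7% and 66.4%: it had 1444, 2025 and 1011 FPKM while the second (ncbi_110515850) had 346, 184 and 511 FPKM. For Gabbr2 the first locus held 56.5%, 50.2% and 61.6%. Near-identical copies can share reads, and no label says how such reads were assigned, so the level of each copy is less certain than their sum. Of 2303 genes of at least 10 FPKM, 10 had exactly the same 9 values as another locus, among them a pair of histone H4 loci (ncbi_118940457 and ncbi_118940458) at 66.6, 86.8 and 57.2 FPKM.

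Genes of protein synthesis were the largest class that is not secreted. Cytosolic ribosomal proteins held 10.4%, 11.6% and 9.59% of the total, spread over many genes: 185 of 189 loci reached 1 FPKM and 146 reached 100 FPKM, but only 4 were among the 100 highest. RPLP0, of the ribosomal stalk, had 1256, 1406 and 1118 FPKM, and rpl7a had 790.4, 864 and 727 FPKM. Translation factors held 1.504%, 1.58% and 1.45%, led by eef1ao (elongation factor EF1 alpha, ncbi_100136004) at 1791, 1853 and 1777 FPKM, which carries aminoacyl-tRNA to the ribosome. Chaperones held 0.666%, 0.680% and 0.661%, led by hspa8, a constitutive Hsp70, at 1496, 1564 and 1429 FPKM. The actin locus actb (ncbi_110517977) had 831, 957 and 763 FPKM.

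Genes of respiration and heme were less abundant. The 13 mitochondrially encoded genes held 1.52%, 1.44% and 1.60% of the total; COX1 had 2333, 2123 and 2426 FPKM and COX2 had 2197, 2171 and 2256 FPKM, both subunits of cytochrome c oxidase. The 165 nuclear-encoded respiratory chain loci held 0.620%, 0.676% and 0.561%, led by COX4I1 at 138, 143 and 128 FPKM. Hemoglobin, a marker of red cells, held 0.607%, 0.678% and 0.604%, led by hba4 (ncbi_100136296) at 413, 478 and 407 FPKM. Ferritin and other iron storage genes held 0.224%, 0.240% and 0.211%, led by the heavy subunit frih at 352, 387 and 325 FPKM.

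Classes of metabolic genes, and of the other cell genes listed here, each held at most 1.04% of the total. Enzymes outside the classes, such as biotinidase, are not counted in them. Xenobiotic metabolism held 1.02%, 1.04% and 0.977%, led by carboxylesterase ces3 at 1059, 1130.0 and 994 FPKM; cyp1a1 (ncbi_110526570), the cytochrome P450 induced by aryl hydrocarbons, had 348, 358 and 318 FPKM. Fatty acid binding proteins held 0.901%, 1.02% and 0.769%, of which fabp10a (ncbi_110517089), the liver basic form of fishes, gave 4012, 4712 and 3327 FPKM. Amino acid metabolism held 0.842%, 0.849% and 0.821%, led by hpda, of tyrosine breakdown, at 1152, 1234 and 1019 FPKM, and by tdo2a, of tryptophan breakdown, at 346, 322 and 361 FPKM. Sugar metabolism held 0.710%, 0.722% and 0.680%, with the gluconeogenic FBP1 at 198, 206 and 189 FPKM. Fatty acid and cholesterol metabolism held 0.596%, 0.580% and 0.600%, led by the acyl-CoA carrier acbp at 445, 465 and 429 FPKM and the delta 6-desaturase fd6d, of long-chain polyunsaturated fatty acid synthesis, at 229, 207 and 242 FPKM. Among antioxidant genes, which held 0.367%, 0.379% and 0.352%, catalase (cat) had 381, 401 and 368 FPKM and metallothionein mt2 had 235, 299 and 183 FPKM. Proteasome and ubiquitin genes held 0.475%, 0.498% and 0.454%, cytoskeleton genes 0.312%, 0.346% and 0.302%, and histone and HMG genes 0.171%, 0.204% and 0.159%. The 39455 loci outside the classes held 26.6%, 26.5% and 26.9%.

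**Figure D4:**
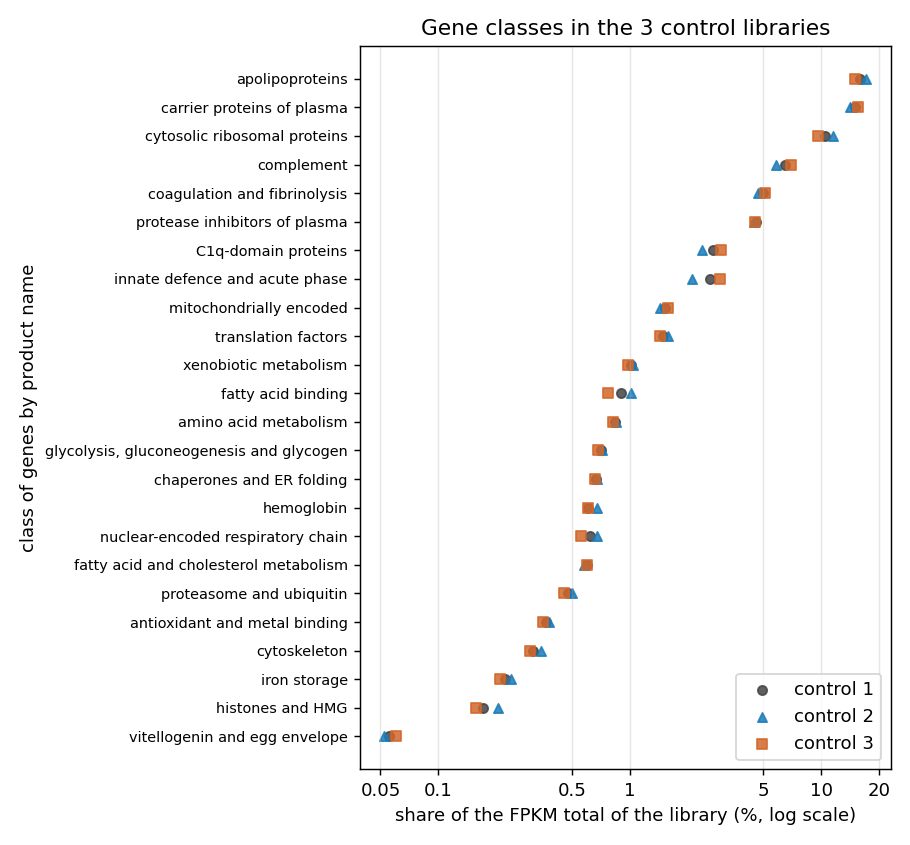
Share of the FPKM total (%, log scale) of each class of genes, named by product, in controls 1, 2 and 3. The secreted classes and the ribosomal proteins lead, and the triangles of control 2 lie to the right of the squares of control 3 for the ribosomal proteins and to the left for complement, C1q-domain and innate defence genes.

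Glucose transporters stood at moderate to low levels. The liver form GLUT2 had 54.9, 54.8 and 56.4 FPKM from its main locus (SLC2A2, ncbi_100135945) and 31.4, 33.3 and 32.1 FPKM from a second (ncbi_110527388). The study's title names glut1a, the ubiquitous glucose transporter 1; it had 0.280, 0.539 and 0.765 FPKM in the controls, 0.715, 0.572 and 0.808 FPKM in moderate hypoxia and 1.105, 1.33 and 1.16 FPKM in acute hypoxia. Every acute library lay above every control library, while the moderate libraries overlapped the controls. The share of all genes without such overlap was not counted. Another GLUT1 locus (Slc2a1, ncbi_110494474) had 0.298, 0.082 and 0.271 FPKM in controls, 0.341, 0.32 and 0.305 in moderate and 0.599, 0.457 and 0.66 in acute hypoxia. The glut1b locus was at 0 in every library. The mean of glut1a was under the 1 FPKM minimum of the test used below, so no p is given. The long non-coding RNA of the title was not analysed here. Yolk and egg envelope genes, which the liver of female fishes makes under estrogen, held 0.0558%, 0.0525% and 0.0603%: ZP3 had 161, 144 and 173 FPKM and zp2.3 had 112, 108 and 121 FPKM, whereas the yolk precursors vtg3, at 9.38, 16.3 and 3.09 FPKM, and vtg1 (ncbi_110513710), at 5.41, 5.33 and 6.71 FPKM, stood low.

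Transcription factors listed for liver, of hepatocyte identity or of metabolism and matched by symbol or product name, were present at low levels. Of 46 listed loci, 30 reached 1 FPKM, 12 reached 10 FPKM and 7 were listed at 0 in all 3 controls. The highest was cebpb (ncbi_100136165), of the acute-phase response, at 36.6, 42.5 and 34.8 FPKM. The bile acid receptor Nr1h4 (ncbi_110522782) had 28.7, 29.8 and 25.9 FPKM, and its target Nr0b2 (ncbi_110488188), a corepressor, had 25.5, 27.8 and 22.8 FPKM. The nuclear receptor hnf4a (ncbi_110532634), a regulator of hepatocyte genes, had 20.03, 17.0 and 21.6 FPKM. A pioneer factor locus with the symbol foxa1 (ncbi_110507478) had 14.8, 13.9 and 14.0 FPKM. Its product name, hepatocyte nuclear factor 3-beta, does not match that symbol. The locus named forkhead box protein A1-A had a mean of 4.25 FPKM.

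Markers of other cells were low, apart from red cells. Red cell markers summed to 2450.1, 2786 and 2386 FPKM, or 0.457%, 0.509% and 0.453% of the total. This list misses some hemoglobin loci, the highest among them. The hemoglobin class given above held more, 0.607%, 0.678% and 0.604%, so the red cell sum is too low. Stellate cell and fibroblast markers summed to 78.6, 96.7 and 92.3 FPKM, led by col1a2 (ncbi_110496633) at 11.8, 16.4 and 15.8 FPKM. Bile duct markers summed to 65.7, 69.7 and 64.5 FPKM, mostly from ANXA4. Macrophage markers summed to 42.4, 49.7 and 41.7 FPKM, lymphocyte markers to 27.2, 35.0 and 31.8 FPKM and endothelial markers to 25.1, 24.8 and 24.3 FPKM. The granulocyte list summed to 2007, 1670.2 and 2269 FPKM, of which lect2, also made by liver, gave nearly all. No other gene matched to that list exceeded 4 FPKM in a control. Lysozyme was planned as a granulocyte marker, but the abundant lysozyme loci given above were not matched, so the sum leaves them out. Exocrine pancreas markers, which in many fishes can lie along the liver's vessels, differed most between libraries: they summed to 7.95, 36.8 and 64.7 FPKM, with 11 of 38 loci at a mean of at least 1 FPKM and 10 at 0 throughout. Their leading gene, trypsin (Prss1), had 0.680, 7.89 and 15.6 FPKM. Skeletal muscle markers summed to 2.62, 9.08 and 14.7 FPKM, with none of 102 loci at a mean of 1 FPKM and 43 at 0. The part of these other tissues in the differences between the control libraries was not tested.

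The control libraries differed from each other by little at most genes. Over the 2303 genes of at least 10 FPKM the median CV was 8.25%, and 7.12% of them had a CV above 20%. From controls 2 and 3 alone 17.1% of the same genes had one, without control 2 4.21% and without control 3 3.69%. The median CV was 11.6% for genes from 1 to 10 FPKM and 6.27% for the 80 genes of at least 1000 FPKM, or 11.2% and 8.85% from controls 2 and 3 alone. The same measure was 8.53% in moderate and 8.40% in acute hypoxia. In controls it was 10.2% from controls 2 and 3 alone, 5.28% without control 2 and 6.11% without control 3. Pairs of libraries within the hypoxia groups ran from 6.54% to 7.74%, so controls 2 and 3 were further apart than any of those pairs. As control 1 lay between the others, the 3-library value of the controls may be too small.

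Controls 2 and 3 differed more in some gene classes than in others. Of the 2303 genes, 1590 (69.0%) were higher in control 2, with a median log2 ratio of 0.14. The counts of this paragraph use FPKM as given and depend on scaling, most of all where a class median is near 0. Median-of-ratios size factors were 1.01 for control 2 and 0.947 for control 3, and the counts were not repeated after that scaling. Ribosomal proteins were higher in control 2 at 170 of 177 loci (median 0.32), respiratory chain genes at 93 of 95 (median 0.30) and translation factors at 46 of 49 (median 0.25). Coagulation genes were higher in control 3 at 28 of 38 loci (median -0.05), complement at 29 of 41 (median -0.07) and protease inhibitors at 17 of 25 (median -0.08). Plasma carriers, at 18 loci higher in control 2 and 16 in control 3, amino acid metabolism, at 25 and 23, fatty acid and cholesterol metabolism, at 35 and 32, and chaperones, at 17 and 15, were near even. Of the 207 genes over 0.5 apart on the log2 scale, 113 were in no class. These are differences between 2 libraries of 1 group, described without a test, and members of a class are not replicates.

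Single genes varied far more. A lipocalin locus (ncbi_110489613), of a family of small lipid carriers, had the largest CV, with 54.3, 1.67 and 105 FPKM. Hepcidin (hamp1), the hormone that lowers iron export, had 18.2, 35.5 and 2.06 FPKM. The flagellin receptor tlr5 had 14.2, 25.3 and 4.89 FPKM, the cell surface proteoglycan sdc4 17.8, 31.4 and 6.58 FPKM, and the chemokine CCL19 (C-C motif chemokine 19, ncbi_110523665) 14.0, 26.8 and 6.20 FPKM. Unlike the lipocalin, hamp1, tlr5, sdc4 and CCL19 were each highest in control 2 and lowest in control 3. The drug-metabolising CYP2B4 and the creatine-forming gamt ran the same way, at 18.2, 31.0 and 6.29 FPKM and at 23.7, 36.1 and 12.0 FPKM. A minor C3 locus (ncbi_118939584) ran the other way, at 35.8, 14.8 and 50.9 FPKM. At the other end, the 10 most even of the 300 highest genes had CVs from 0.0617% to 0.745%. They included pglyrp2, which cleaves bacterial peptidoglycan, at 297.7, 297.5 and 297.8 FPKM, rbp2, an intracellular retinol carrier, at 2476, 2467 and 2472 FPKM, c4b at 1107, 1097 and 1101 FPKM and Kng1, kininogen, at 898, 907 and 907 FPKM.

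The ranking changed little in the hypoxia groups. Of the 100 highest control genes, 92 were among the 100 highest of moderate hypoxia and 95 among those of acute hypoxia, and the lowest rank any of them took was 155 and 167. Of the 10 highest, 9 and 10 stayed among the 10 highest. The levels of single genes were compared with limma on log2(FPKM + 0.5) over 13803 genes with all 9 libraries in 1 fit, at a Benjamini-Hochberg adjusted p under 0.05. The control libraries enter both comparisons, and the 100 genes were picked by their control level, so their counts are read beside those of all genes only as a description.

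In moderate hypoxia, 32 of the 100 genes were lower and 7 higher, where 5.02% of all genes tested were lower and 24.3% higher. The median log2 fold change was -0.16 over the 100 genes and 0.15 over all genes. This split depends on scaling: after median-of-ratios scaling, which moves the median of all genes to -0.05, 54 of the 100 were lower and 0 higher by limma (1 higher at an unadjusted p under 0.05), with 2104 lower and 1546 higher of all genes in place of 693 and 3348. Without control 1, 15 were lower and 4 higher, beside 421 lower and 2202 higher of all 13803 genes tested. Leaving out the first moderate library gave 18 and 4, beside 568 lower and 2246 higher of all genes. Testing without a filter on low values gave 13 and 2, beside 563 lower and 3572 higher of 35536 genes tested.

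The lower genes included complement genes and both loci of Gabbr2 and of Slc4a7. A C3 locus (c3, ncbi_110517348) had 1136, 869 and 1358 FPKM in controls and 566, 571 and 469 in moderate hypoxia, and fell by 1.05 ± 0.17 (SE) on the log2 scale (limma adjusted p = 0.0016). The first Gabbr2 locus had 4601, 4573 and 6286 FPKM in moderate hypoxia and fell by 1.03 ± 0.20 (limma adjusted p = 0.00425). The 2 Slc4a7 loci, at 634, 632 and 705 FPKM (ncbi_110535510) and 1485, 1505 and 1733 FPKM (ncbi_110534121), fell by 1.002 ± 0.08 and 0.83 ± 0.08. Complement C1q-like protein 3 had 5350.3, 6596 and 4496 FPKM and fell by 0.89 ± 0.14. An apolipoprotein C-I locus (ncbi_110537939) went from 1651, 1776 and 1563 FPKM to 930.3, 976 and 994, a fall by 0.78 ± 0.10, and complement factor I (cfi), the protease that inactivates C3b, from 886, 820.3 and 904 to 594, 597 and 566, a fall by 0.57 ± 0.09. In each of these 7 genes every moderate library lay below every control library. That adds no support, since they were picked by passing the test on these same libraries. The share of all genes tested without overlap was not counted. Each of the 7 passed limma's test without control 1 and after median-of-ratios scaling. The fall of lyz2 by 0.65 ± 0.19, to 1426, 1319 and 1325 FPKM, passed after that scaling but not without control 1 (limma adjusted p = 0.0675).

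The 7 higher genes were haptoglobin (HP, ncbi_110506425), the 2 apolipoprotein A-II loci, the cold-inducible RNA-binding protein cirbp-b, actb, COX1 and the eef1ao locus ncbi_110496143. Haptoglobin had 1274, 1143 and 1417 FPKM in controls and 2144, 1925 and 1737 in moderate hypoxia, a log2 fold change of 0.60 ± 0.18 (limma adjusted p = 0.0297). The higher-ranked apolipoprotein A-II locus (apoa2) reached 31847, 34199 and 39980.3 FPKM, a log2 fold change of 0.52 ± 0.10 (limma adjusted p = 0.00403). cirbp-b went from 1554, 1751 and 1404 FPKM to 2020.0, 2083 and 2161, a log2 fold change of 0.42 ± 0.09 (limma adjusted p = 0.00796). Relative to the median of all genes these 3 were at 0.44, 0.37 and 0.26. None of the 7 passed after median-of-ratios scaling (limma adjusted p from 0.0808 to 0.666), and 4 passed without control 1 (apoa2, cirbp-b, actb and COX1).

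In acute hypoxia, 8 of the 100 genes were lower and 1 higher, where 4.71% of all genes tested were lower and 3.08% higher; the median log2 fold change of the 100 was 0.0025 and that of all genes -0.05. After median-of-ratios scaling 5 were lower and 2 higher, with 526 lower and 580 higher of all genes in place of 650 and 425. Without control 1, and likewise without a filter on low values, limma called 3 lower and 0 higher (5 higher at an unadjusted p under 0.05). Beside these, 262 of all 13803 genes tested were lower and 200 higher without control 1. Without a filter, 403 of 35536 were lower and 297 higher. Without the second acute library limma called 5 of the 100 lower and 0 higher (6 at an unadjusted p under 0.05), beside 357 lower and 231 higher of all genes. An uncharacterized gene (si:ch1073-126c3.2) that was among the 10 most even in controls, at 934, 924 and 926 FPKM, had 399, 462 and 605 FPKM in acute hypoxia and fell by 0.95 ± 0.13 (limma adjusted p = 0.00175). Comtd1, named for a catechol O-methyltransferase domain, went from 864, 878 and 823 FPKM to 411, 472 and 573 and fell by 0.83 ± 0.14 (limma adjusted p = 0.00571). The lower-ranked leg1 locus (ncbi_110529547) went from 804, 796 and 796 FPKM to 583, 599 and 617 and fell by 0.41 ± 0.07 (limma adjusted p = 0.00553). These 3 passed without control 1 and after median-of-ratios scaling. MFAP4, cblnl, rnasel3, HP (ncbi_118936659) and apoc2 were lower, and the first albumin locus (alb1, ncbi_100499622) was higher by 0.28 ± 0.07, at 19796, 20577 and 22419 FPKM; none of these 6 passed without control 1 (limma adjusted p from 0.0576 to 0.141). In all 9 genes the acute and control libraries did not overlap. They were picked by passing the test on these same libraries, so this adds no support. The share of all genes tested without overlap was not counted.

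**Figure D5:**
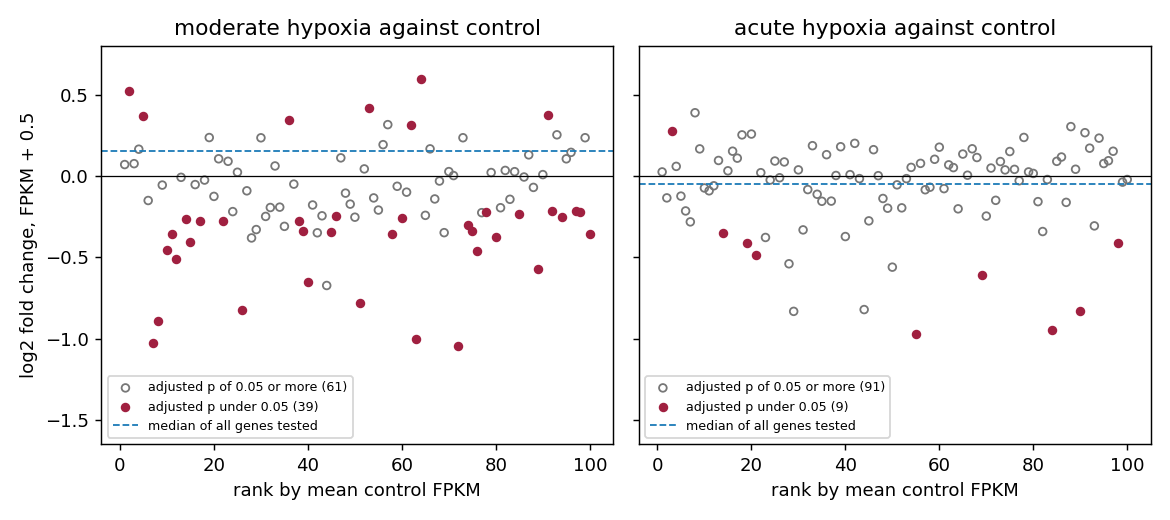
Log2 fold change of FPKM + 0.5 against control for each of the 100 highest control genes, by rank, in moderate (left) and acute (right) hypoxia; filled points passed limma's test at an adjusted p under 0.05 and the dashed line is the median of all genes tested. In moderate hypoxia 32 filled points lie below 0 and 7 above; in acute hypoxia 8 lie below and 1 above. The moderate split changed to 54 below and 0 above after median-of-ratios scaling.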

How the data were processed

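RNA-seq libraries from liver were quantified by the authors, and the values used are deposited FPKM, normalised by the authors for transcript length and mapped fragments, per the file headers. Bowtie2 2.2.8 and TopHat2 2.1.1 are named per the submitters' processing notes; which genome build and counting tool served is not given in the sources used here. Deposited as 1 file, the values form 3 stacked pairwise tables. Controls and moderate hypoxia came from the first (42127 genes). Acute hypoxia came from the table that pairs it with moderate hypoxia, whose moderate values were identical (largest difference 0). The table pairing acute hypoxia with control, made on other gene models, was an alternative. Of the identifiers, 41895 are NCBI gene IDs, all found in the RefSeq gene table, and 232 have the form StringTie gives.

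Shares, ranks and CVs were computed with Python 3.11.15 and pandas 2.3.3. Classes and marker lists were matched by symbol or product name and corrected for false matches. The members and lists were chosen with earlier results of these data known. The genes named are the 30 highest, up to 5 per class, the 15 most and 10 least variable, listed transcription factors, up to 4 per marker list, and of the 100 highest genes up to 8 per direction that passed a test, with a few others singled out after their values were seen: gene copies, second loci and genes outside the range of 2 controls. Hypoxia was compared with control by limma 3.58.1 in R 4.3.3 on log2(FPKM + 0.5), with a trend, for genes of mean FPKM of at least 1 over the 9 libraries; the procedure was tested on simulated data. Fold changes of low genes are understated on that scale. Total reads are unknown, so no counting interval is given. Alternatives were other pseudocounts, filters, scalings, tables, rankings and sample sets. Results for some genes are not reported here.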

Additional observations from a re-analysis of the deposited data

How the results depend on the processing

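The 100 highest genes held 58.8% to 60.1% of the FPKM total with each control left out, and the other table and the removal of low, mitochondrial and hemoglobin genes moved the share by less than the SD. The share of the 10 highest genes, 26.5% ± 0.09 (SD, n = 3), moved by more than its SD in these settings. It was 27.2% in the other table, 26.8% without low genes and 27.1% without mitochondrial and hemoglobin genes. Between 97 and 100 of the 100 highest genes kept their place among them under every alternative ranking. The median CV ran from 5.28% to 10.2% with each control left out, and was 7.38% after median-of-ratios scaling. Genes called in moderate hypoxia numbered 4041, with 2623 to 3510 when single libraries were left out and 1257 at a filter of 5 FPKM, where fewer genes were tested; of the 100 highest genes 39 were called, with 19 to 39 when single libraries were left out and 15 without a filter. In acute hypoxia 1075 were called, with 462 to 883 when single libraries were left out, 700 without a filter and 571 at 5 FPKM; of the 100 highest 9 were called, with 3 to 9 when single libraries were left out and 3 without a filter. The cause of the changes without a filter was not tested. Among the settings that left out a single library, the lowest counts came without control 1. Counts over all genes also fell by over 1.5 times in acute hypoxia without control 2 (662) and without the second acute library (588). Median-of-ratios scaling turned the moderate split from 3348 higher and 693 lower to 1546 and 2104, and the acute split from 425 and 650 to 580 and 526.

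Deviations of same-numbered libraries from their group means correlated at -0.13 to 0.08 across genes. Differently numbered libraries were not set beside them, so whether the replicate numbers pair the samples was not tested. With a replicate block, 3557 genes were called in moderate and 794 in acute hypoxia, 30 and 7 of them among the 100 highest. Reads per gene are unknown, so the precision of genes near 1 FPKM cannot be given.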
